A study of Mus musculus with 2 samples.

Results

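The imprinted growth-control genes described here are 10 genes, *H19*, *Igf2*, *Meg3*, *Dlk1*, *Peg3*, *Grb10*, *Igf2r*, *Ndn*, *Mest* and *Plagl1*, in long-term hematopoietic stem cells (LT-HSCs). They were found on the array as every probe, other than control spots, that carries 1 of these gene names, which gave 25 of 55681 distinct probes and 10 of the 22557 genes named on it. Total RNA of LT-HSCs from the bone marrow of 2-year-old C57BL/6J mice, sorted as CD150+ CD48- Flt3- CD34- cells among lineage-negative Sca-1+ c-Kit+ (LSK) cells (the methods add CD41- to this gate, and the labels do not), was labelled with Cy3 and measured on Agilent mouse arrays of 1 colour. There was 1 array of p38α+/+ cells and 1 of p38αΔ/Δ cells, so no spread between mice could be given and no test between genotypes was made. Both groups of mice carried floxed p38α alleles and, by the paper's timeline, had received tamoxifen at about 1 year of age, 1 year before analysis. The p38αΔ/Δ mice also carried CAG-CreERT2, a tamoxifen-activated Cre driven in all tissues by the CAG promoter, and the p38α+/+ mice lacked the Cre. The number of mice behind each array was not given in the sources used here. The label of the p38αΔ/Δ array was checked first at *Mapk14*, the gene of p38α. Its probe A_55_P2179348 gave an intensity of 605 in p38α+/+ cells and 468 on the p38αΔ/Δ array, a log2 difference of -0.05 after scaling, and A_55_P2046338 gave 728 and 569, a difference of -0.04. These differences lay within the SD between spots of 0.09, and whether either probe lies in the deleted part of the gene was not given, so the sample is called the array labelled p38αΔ/Δ throughout. For mice on this timeline, the paper reported by genomic qPCR of blood cells that *Mapk14* was reduced, though not fully lost. From its transcriptome data it also reported lower expression of p38MAPK pathway genes in p38αΔ/Δ LT-HSCs.

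Imprinted genes are expressed mainly from the allele of 1 parent, marked by DNA methylation that is set in the germ line. Many of them control growth in the embryo: genes expressed from the paternal allele often promote it and genes expressed from the maternal allele often restrain it. In blood, several of them, *H19*, *Igf2*, *Dlk1* and *Meg3* among them, are known for their expression in LT-HSCs. Of the 10 genes, *H19*, *Meg3*, *Grb10* and *Igf2r* are known chiefly as maternally expressed, and *Igf2*, *Dlk1*, *Peg3*, *Ndn*, *Mest* and *Plagl1* as paternally expressed.

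For each probe the scanner intensity on both arrays is given first. The log2 level is the log2 intensity minus the 75th percentile of its own array (7.16 for p38α+/+, 6.85 for the array labelled p38αΔ/Δ), so that equal intensities stand for a higher level on the latter. The log2 difference is the level on the array labelled p38αΔ/Δ minus the level on the p38α+/+ array. Its error is the SD of a difference between repeated spots, which combines the spread within each of the arrays. It was taken as the median over the 50 repeated probes closest in mean level over both arrays. It says nothing of mice, cell sorting or RNA preparation. A probe that the scanner software did not mark as well above background on an array has only a bound. Its level, where lower, was raised to the lowest level well above background on that array. This was an intensity of 5.71 in p38α+/+ cells and 4.19 on the array labelled p38αΔ/Δ. Folds and differences given as at least or at most a value are bounds against that level, which is not a strict limit. Some probes not marked as above background read higher, such as *Igf2* in p38α+/+ cells (7.36) and the endothelial marker *Flt1* on the other array (4.84). Levels are not compared between probes, since probes differ in brightness for the same amount of RNA. In sorted bulk cells, fewer cells of a type and less RNA per cell cannot be told apart.

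The sequences of 2 neighbouring *H19* probes, 1 *Dlk1* probe and 2 *Meg3* probes are given here, 5′ to 3′, with coordinates in mm9, the build of the array design. The first 2 are neighbours on *H19*, 3 bases apart and going opposite ways, and the capitals mark the longest run of C and T in each. Both had a GC content of 45.0%, and C and T made up 70.0% of the first and 55.0% of the second.
H19 A_30_P01025068, chr7:149761756-149761815, minus strand: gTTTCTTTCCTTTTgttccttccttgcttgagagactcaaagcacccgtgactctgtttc
H19 A_30_P01021588, chr7:149761693-149761752, minus strand: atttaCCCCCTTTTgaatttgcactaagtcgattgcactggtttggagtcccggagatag
The next is the *Dlk1* probe with the largest difference among the 25 probes, given in lower case throughout. It can be read without a stop codon in 1 of 3 frames.
Dlk1 A_55_P2105371, chr12:110698502-110698561, plus strand: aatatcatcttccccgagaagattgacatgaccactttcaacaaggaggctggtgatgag
The last 2 are the *Meg3* probes that the scanner software marked as above background, likewise in lower case. The design lists them under different *Meg3* transcripts.
Meg3 A_52_P196568, chr12:110799558-110799617, plus strand: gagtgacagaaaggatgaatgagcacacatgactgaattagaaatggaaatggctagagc
Meg3 A_51_P455997, chr12:110809678-110809737, plus strand: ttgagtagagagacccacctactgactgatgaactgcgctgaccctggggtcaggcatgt

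The scanner software marked 15 of the 25 as well above background on both arrays, 6 on 1 array and 4 on neither. All 4 of the last group, the pair of *Peg3* probes, 1 of *H19* and 1 of *Meg3*, have no fold. Of the 21 probes measured on at least 1 array, 10 were lower and 11 higher on the array labelled p38αΔ/Δ, with a median log2 difference of 0.03 beside 0.0071 over all 40416 measured probes. At least 2-fold lower were 3 of the 21 (14.3%), against 7.52% of all measured probes. The count was 1 of 15 with the authors' values and 1 of 15 where both arrays had to be above background. These settings leave out the probes with only a bound and do not change their values. Under normexp, a background correction on the local background with an offset of 50, the count was 0. That offset shrinks differences at dim probes, so normexp cannot decide such calls. The 3 were 1 probe of *Dlk1* and, as bounds against the lowest level above background, 1 of *H19* and 1 of *Meg3*. The calls of *H19* and *Meg3* depend on that level and could fall short of 2-fold with a higher one. At least 2-fold higher was 1 of the 21 (4.76%), an *H19* probe, against 6.32% of all measured probes. Most of the 21 probes were dim, and among all probes with a mean log2 level under -1 the shares were 11.5% lower and 9.55% higher. At 7 of the 21 probes the difference lay within 1 SD between spots.

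**Figure D1:**
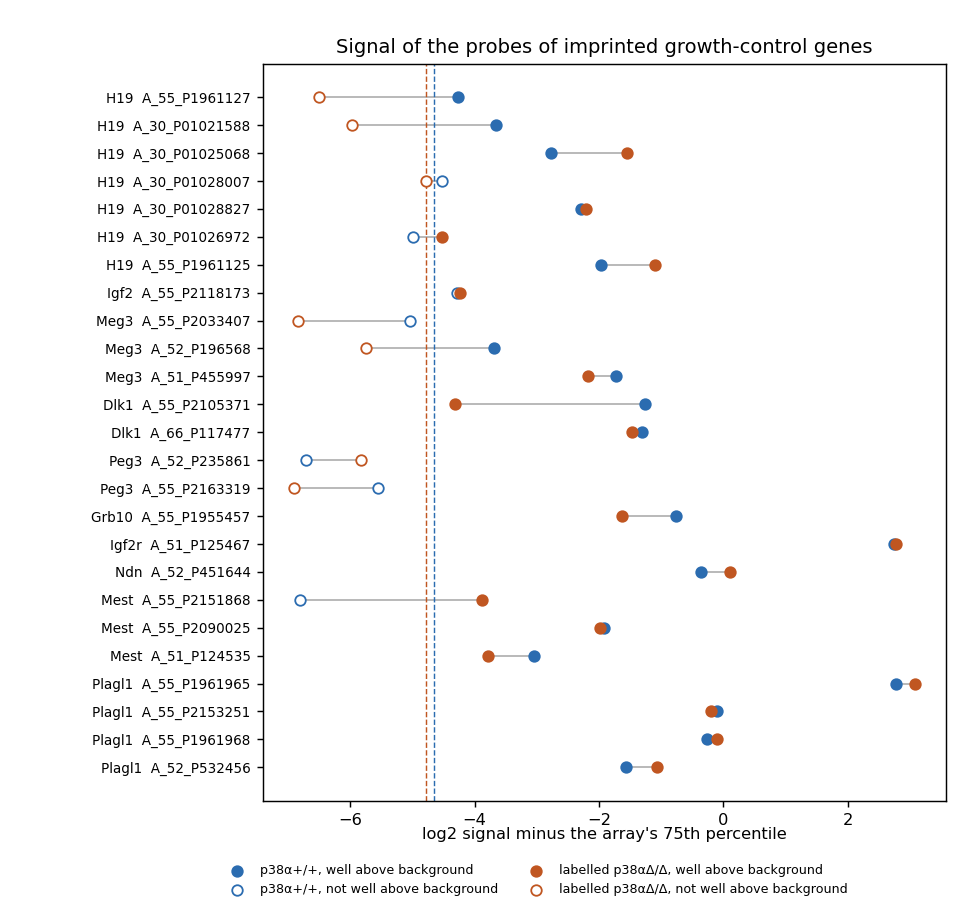
Log2 level (log2 signal minus the array's 75th percentile, x axis) of each of the 25 probes on the p38α+/+ array (blue) and the array labelled p38αΔ/Δ (orange); open points were not well above background, dashed lines mark the lowest level well above background on each array (-4.65 and -4.78), and grey lines join the points of a probe. *Igf2r* and the brightest *Plagl1* probe lie near 3 on both arrays, the pair of *Peg3* probes lies left of the dashed lines on both, and the longest line between filled points is that of *Dlk1* A_55_P2105371.

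Counted by gene at its brightest probe, 9 of the 10 were measured, all except *Peg3*. Of these, 4 were lower and 5 higher, among the latter *Igf2* at 0.04 next to background, and 0 reached 2-fold in either direction. The brightest probe is that with the highest mean level over both arrays, so a steep fall lowers the rank of a probe. *Dlk1* A_55_P2105371 (-3.07) was the brighter of its pair in p38α+/+ cells (60.1 against 57.6) and did not stand for the gene. Over all 17201 measured genes, 6.76% were lower by 2-fold or more, and 4.11% were higher by as much. The median log2 difference of the 9 genes was 0.03, beside -0.03 over all genes, whose quartiles were -0.38 and 0.33. Of the 4 maternally expressed members 2 were lower and 2 higher, from -0.88 (*Grb10*) to 0.88 (*H19*), and of the 5 measured paternally expressed members 2 were lower and 3 higher, from -0.16 (*Dlk1*) to 0.46 (*Ndn*).

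*H19*, a maternally expressed noncoding RNA of the *Igf2* locus that restrains growth, had 7 probes on the minus strand of chromosome 7. From the 5′ to the 3′ side, the brightest probe, A_55_P1961125 (149762417-149762476), gave an intensity of 36.5 in p38α+/+ cells and 53.7 on the array labelled p38αΔ/Δ, a log2 difference of 0.88 ± 0.19 (SD between spots), or 1.84-fold higher. The next, A_30_P01026972, did not clear background in p38α+/+ cells (4.49) and only just did on the other array (4.97), a difference of at least 0.12. It abuts A_30_P01028827, which gave 29.4 and 24.8, a difference of 0.07 ± 0.23. Up to this point no *H19* probe was lower on the array labelled p38αΔ/Δ. A_30_P01028007 was above background on neither array (6.19 and 4.18). A_30_P01025068 gave 21.0 and 39.4, a difference of 1.23 ± 0.22, which is 2.34-fold higher. Only 3 bases further 3′, A_30_P01021588 went the other way, at 11.4 in p38α+/+ cells and 1.83, not above background, on the array labelled p38αΔ/Δ. That probe was at least 2.18-fold lower (log2 difference of at most -1.12). The most 3′ probe, A_55_P1961127, likewise gave 7.43 and 1.27, the latter not above background, and was at least 1.42-fold lower. The 3 *H19* probes well above background on both arrays had differences of 0.07 or above, and the 2 most 3′ and dim probes were lower, with no single direction for the transcript.

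*Igf2*, the paternally expressed growth factor that shares its enhancers with *H19*, had 1 probe. Its intensity was 7.36 in p38α+/+ cells, where it did not clear background, and 6.08 on the array labelled p38αΔ/Δ, where it did. The log2 levels, -4.28 and -4.24, lay next to the lowest level that counts as above background on these arrays, and no fold is given. *Igf2r* encodes the receptor that takes IGF2 to the lysosome for degradation and is maternally expressed. Its 1 probe was spotted 10 times, and the design lists for it only 11 bases (chr17:12875253-12875263) of its 60, on the minus strand. Intensities over the 10 spots were 905 at the lowest, 964 at the median and 995 at the highest in p38α+/+ cells, and 731, 794 and 816 on the array labelled p38αΔ/Δ. Once scaled, the levels overlapped, at 2.74 ± 0.04 and 2.77 ± 0.05 (SD, n = 10 spots each), a difference of 0.03. The difference was smaller than the spread between spots.

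**Figure D2:**
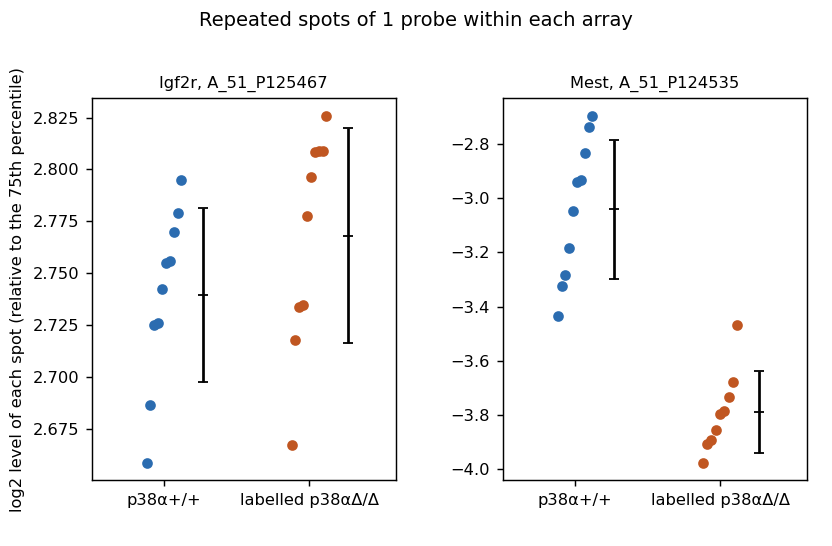
Log2 level of each repeated spot (y axis, relative to the array's 75th percentile; the scales of the panels differ) of the *Igf2r* probe and of 1 *Mest* probe on the p38α+/+ array (blue) and the array labelled p38αΔ/Δ (orange), with mean ± SD beside the points, sorted by value. The *Igf2r* spots overlap between the arrays, and the 10 *Mest* spots on p38α+/+ all lie above the 9 on the other array.

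*Dlk1* and *Meg3* lie in 1 imprinted cluster on chromosome 12. *Dlk1*, a paternally expressed transmembrane protein of the Notch ligand family that holds progenitors back from differentiation, had 2 probes 159 bases apart. A_55_P2105371, printed above, gave 60.1 in p38α+/+ cells and 5.75 on the array labelled p38αΔ/Δ, a log2 difference of -3.07 ± 0.29 (SD between spots), which is 8.40-fold lower by the deposited intensities. That SD comes from probes near its mean level over both arrays. For the *Igf2* probe, which was about as dim as this one on the array labelled p38αΔ/Δ, the SD was 0.51. Under normexp the difference was -0.63, short of 2-fold. The second probe, brighter over both arrays, A_66_P117477 (chr12:110698721-110698781), gave 57.6 and 41.4, a difference of -0.16 ± 0.19. The pair thus differed in its log2 differences, and on the array labelled p38αΔ/Δ the first probe, at a level of -4.32, was close to the lowest level above background (-4.78), as *Igf2* was. A value at least 8-fold lower was seen at 42 of the 35798 probes well above background on both arrays (0.117%). Among 4590 genes with at least 2 such probes, the median span between a gene's lowest and highest log2 difference was 0.49, and in 21.4% it reached 2-fold. The span of *Dlk1* was 2.91, and 33 genes (0.719%) had one as large. The spans of the other members with at least 2 such probes were 1.15 for *H19*, 0.69 for *Mest* and 0.61 for *Plagl1*.

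*Meg3*, the maternally expressed noncoding RNA of the cluster, had 3 probes along the plus strand. The most 3′, A_51_P455997, gave 43.1 in p38α+/+ cells and 25.5 on the array labelled p38αΔ/Δ, a log2 difference of -0.44 ± 0.21 (SD between spots), or 1.35-fold lower. A_52_P196568 gave 11.1 and 2.15, the latter not above background, so that it was at least 2.12-fold lower (log2 difference of at most -1.08). A_55_P2033407 was above background on neither array (4.37 and 1.01). Both measured *Meg3* probes were lower on the array labelled p38αΔ/Δ by the deposited intensities, and under normexp their differences were -0.01 and 0.01. *Mirg*, a microRNA-bearing RNA downstream in the same cluster, had log2 differences of 0.20 ± 0.19 and -0.28 ± 0.19 at its pair of measured probes. *Dio3*, the deiodinase gene at the far end, gave 124 and 108, a difference of 0.12 ± 0.13. *Rtl1* was above background on neither array. The array also holds 46 plus-strand probes between *Dlk1* and *Mirg* that are named only by their position, a set chosen after the values were seen. Of these, 30 were measured, 2 were lower and 4 higher by 2-fold or more, and the median log2 difference was 0.24, beside the shares of 7.52% and 6.32% among all measured probes. Of 31 such probes on the minus strand, 22 were measured, 0 were lower and 1 higher by 2-fold or more, with a median of 0.19. The cluster as a whole had no common direction.

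**Figure D3:**
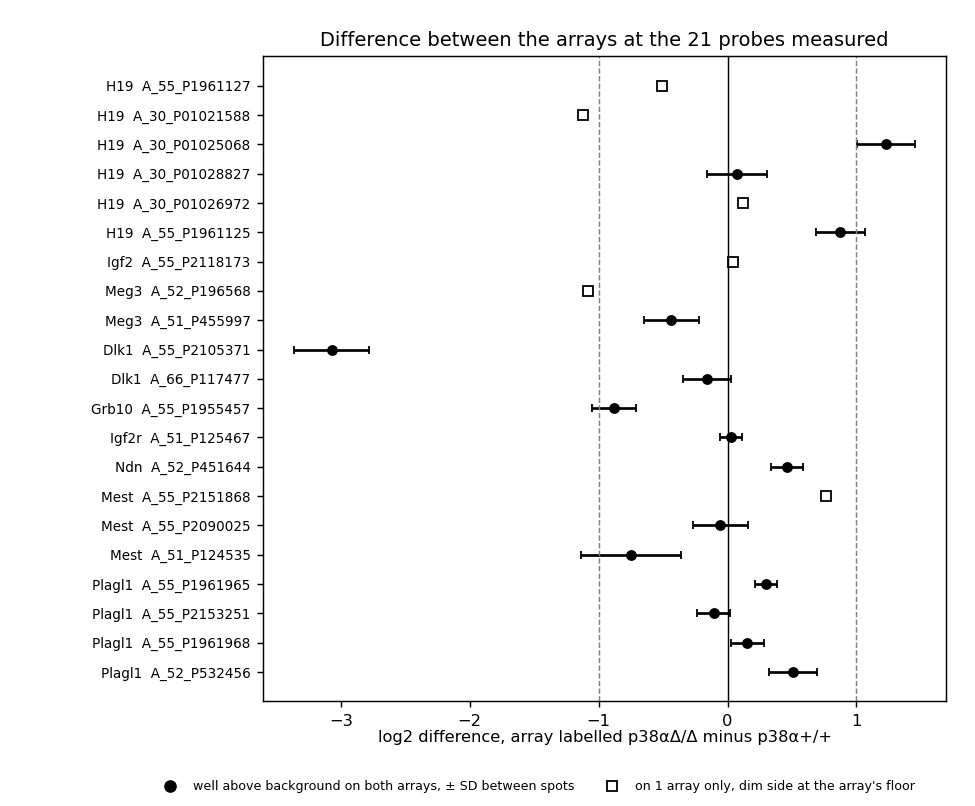
Log2 difference (array labelled p38αΔ/Δ minus p38α+/+, x axis) at the 21 probes measured on at least 1 array; filled points with bars are ± SD between repeated spots within an array, open squares have 1 side at the lowest level above background, and dashed lines mark 2-fold. The *Dlk1* probe A_55_P2105371 stands at -3.07, while the second *Dlk1* probe lies at -0.16, and *H19* probes lie on both sides of 0.

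*Grb10*, an adaptor protein that dampens insulin and IGF receptor signalling, had 1 probe (chr11:11833165-11833224, minus strand). It gave 84.7 in p38α+/+ cells and 37.0 on the array labelled p38αΔ/Δ, a log2 difference of -0.88 ± 0.17 (SD between spots), or 1.84-fold lower. This was larger than the spread between spots and short of 2-fold. *Plagl1*, a zinc finger transcription factor known to act on a network of other imprinted genes and on the cell cycle, had 4 probes, each measured on both arrays. The brightest gave 982 and 971, a difference of 0.30 ± 0.09. The 3 others, in order along the plus strand of chromosome 10, gave differences of -0.11 ± 0.13, 0.15 ± 0.13 and 0.51 ± 0.18. Of the 4 *Plagl1* probes, 3 were higher and 2 of those by more than 2 SD between spots.

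*Ndn*, the necdin gene of the Prader-Willi cluster, whose protein holds cells out of division, had 1 probe (chr7:69493847-69493906, plus strand). It gave 112 in p38α+/+ cells and 124 on the array labelled p38αΔ/Δ, a log2 difference of 0.46 ± 0.12 (SD between spots), or 1.38-fold higher. The direction was not shared by all neighbours of the cluster. *Magel2*, next to *Ndn*, gave 61.0 and 63.0, a difference of 0.36 ± 0.15, and *Mkrn3* was lower at both of its probes, 42.8 and 14.5 at the brighter (-1.25 ± 0.24) and 21.9 and 7.75 at the other (-1.18 ± 0.38). *Snrpn*, which encodes a splicing protein, had log2 differences of -3.46, -0.83 and 0.45 at its 3 probes. The brightest of these gave 90.4 and 6.58, so that *Snrpn*, like *Dlk1*, rested on 1 probe for its largest value.

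*Mest*, a paternally expressed hydrolase-like protein of the endoplasmic reticulum, had 3 probes on chromosome 6. Its brightest, A_55_P2090025 (30697385-30697444), gave 37.7 in p38α+/+ cells and 29.1 on the array labelled p38αΔ/Δ, a difference of -0.05 ± 0.21 (SD between spots). A_51_P124535 (30698279-30698338), spotted 10 times, had intensities of 13.3 to 22.1 with a median of 18.0 on the p38α+/+ array (n = 10 spots), and of 7.31 to 10.4 with a median of 8.30 on the other (n = 9 spots, 1 left out as an outlier). The spots did not overlap, at log2 levels of -3.04 ± 0.26 and -3.79 ± 0.15 (SD), a difference of -0.75. Under normexp, which changes the background and also adds an offset of 50, more than either intensity, that difference was 0.01. A_55_P2151868 (30692160-30692219) went the other way: it did not clear background in p38α+/+ cells (1.28) and gave 7.77 on the array labelled p38αΔ/Δ, at least 1.70-fold higher. The 3 *Mest* probes thus had 1 value each of lower, near 0 and higher. *Peg3*, a paternally expressed zinc finger protein, was above background at neither probe, with intensities of 1.37 and 3.05 in p38α+/+ cells and 2.02 and 0.961 on the array labelled p38αΔ/Δ. Its neighbours *Zim1* and *Usp29* were also dim, *Zim1* on both arrays and *Usp29* on the array labelled p38αΔ/Δ only (8.78 and 3.02).

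**Figure D4:**
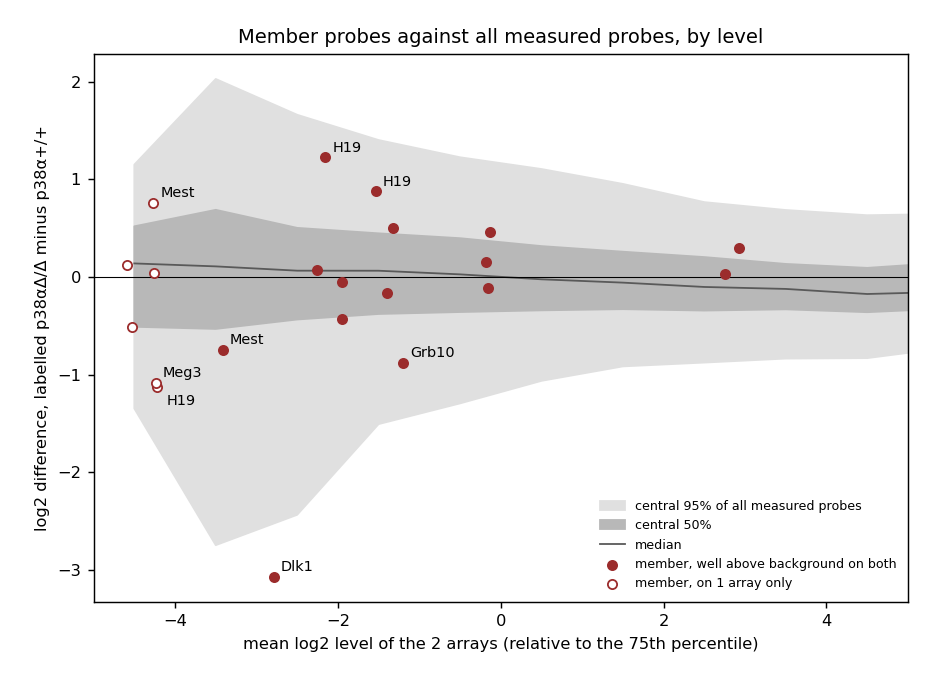
Log2 difference (array labelled p38αΔ/Δ minus p38α+/+, y axis) against the mean log2 level of the arrays (x axis) for the 21 measured probes of the 10 genes (red; open where well above background on 1 array only), over the central 95% and 50% and the median of all 40416 measured probes in bins of level (grey). The spread of all probes widens toward dim levels, and the *Dlk1* probe at -3.07 is the member outside the central 95%.

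The promoters of 9 of the 10 genes were found in the RefSeq table (GRCm38.p6), with 16 starts in all. *H19* was not matched. In the 250 bases before each start, the number of CpG pairs ranged from 0 at 1 *Meg3* start to 40 at 1 *Grb10* start, and 8 of the 16 had 10 or more (50.0%), against 37.8% of all 32851 promoters. The letters TGCCGC, the core of the motif bound by ZFP57, which keeps methylation at imprinted control regions, were looked for on both strands. They were found at 4 of the 16 starts, 1 of *Meg3*, 1 of *Plagl1* and 2 of *Mest* that lie 3 bases apart, against 8.68% of all promoters. These are matches of letters in a window, and methylation was not measured here.

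The wider class of imprinted genes was written as a list of 53 others from general knowledge. Of these, 49 were on the array and 41 were measured at their brightest probe, with 21 lower and 20 higher on the array labelled p38αΔ/Δ and a median log2 difference of -0.04. Of the 41, 3 were lower and 1 higher by 2-fold or more, near the shares of 6.76% and 4.11% among all genes. The 3 were *Snrpn* and *Mkrn3* as above and *Nap1l4*, a histone chaperone gene (552 and 195, -1.18, with -0.28 at its second probe). The 1 higher was *Inpp5f*, a phosphoinositide phosphatase gene (6.71 and 15.0, 1.47). Short of 2-fold, the most negative differences among genes above background on both arrays were at *Tssc4* (-0.97), *Zrsr1* (-0.94) and *Atp10a* (-0.89), and the most positive at *Airn* (0.69), *Zdbf2* (0.53) and *Copg2* (0.51). *Airn*, the noncoding RNA antisense to *Igf2r*, gave 540 and 701 at its brightest probe, and its 3 other probes had differences of 0.31, -0.08 and -2.41. The allele of each gene in this list was also assigned from general knowledge and was not checked here. The 20 measured genes assigned as paternally expressed had a median of 0.05, with 8 lower and 12 higher. The 21 assigned as maternally expressed had a median of -0.07, with 13 lower and 8 higher. Among neighbours of the members, *Ins2*, next to *Igf2*, had a difference of 0.47 ± 0.11 (210 and 234), and *Ddc*, next to *Grb10*, one of 0.31 ± 0.23 at its brighter probe (27.5 and 27.3). A second *Ddc* probe was not above background on the p38α+/+ array (2.51) and gave 37.7 on the other.

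*Igf2*, *Igf2r*, *H19* and *Grb10* act on IGF signalling, in which IGF1, IGF2 and insulin bind receptor tyrosine kinases and binding proteins hold the ligands back. Of 28 further genes of this pathway, all on the array, 20 were measured, 9 lower and 11 higher, with a median log2 difference of 0.15. The ligand gene *Igf1* was higher at its brightest probe (195 and 297, 0.92 ± 0.11), while its 4 measured probes ran from -1.31 to 0.92. The receptor genes *Igf1r* (592 and 469, -0.02) and *Insr* (-0.19) lay within the quartiles of all genes. *Igfbp4*, which binds IGFs, was the only gene of the 20 past 2-fold, at 80.4 and 31.2 (-1.05). Among all genes, 6.76% were lower and 4.11% higher by 2-fold or more. Among genes above background on both arrays, the next on the lower side were *Grb2* (-0.77) and then *Grb7* (-0.32) and *Igf2bp2* (-0.29), both within the quartiles of all genes, and on the higher side *Insrr* (0.62) and *Ins1* (0.54) followed *Igf1*. With a bound on 1 side, *Igfals* was higher by at least 0.99 and *Igfbp6* lower by at least 0.43 on the log2 scale.

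**Figure D5:**
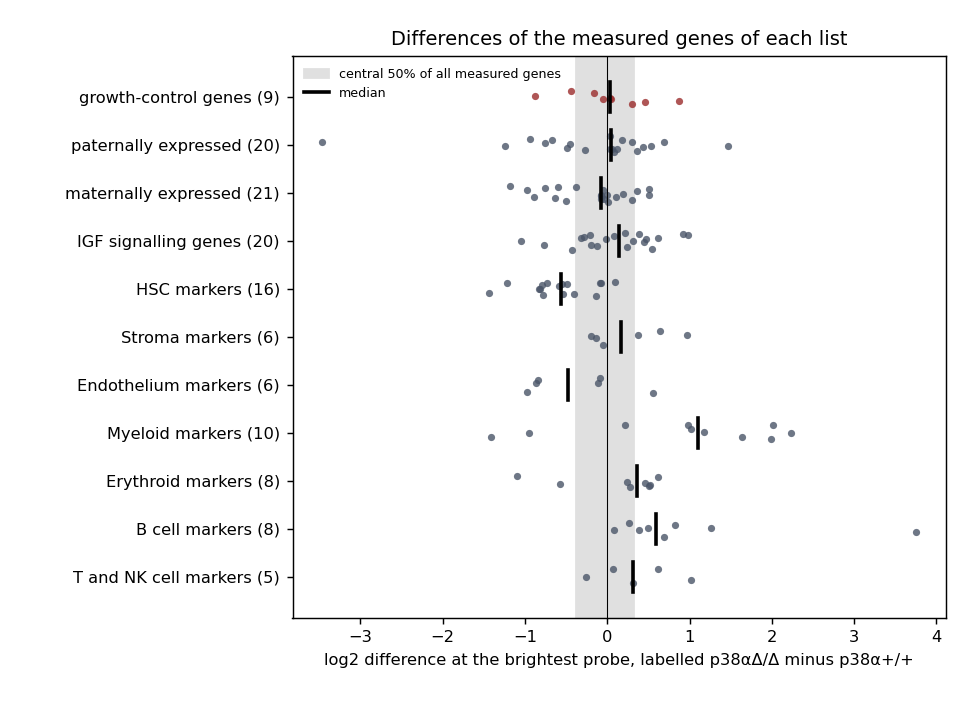
Log2 difference at the brightest probe (x axis, array labelled p38αΔ/Δ minus p38α+/+) of each measured gene of the 10 growth-control genes, the other imprinted genes by allele, IGF signalling genes and cell type markers (number of genes in parentheses); bars are medians and the grey band is the central 50% of all measured genes (-0.38 to 0.33). The growth-control genes scatter around 0, whereas the HSC markers lie mostly below it and the myeloid markers mostly above.

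Several of the 10 genes are also expressed in bone marrow stroma and in other blood cells, so markers of these cells were set beside them. All 16 HSC markers were measured, 15 lower and 1 higher, with a median log2 difference of -0.57, and their summed signal, in units of each array's 75th percentile, was 202 in p38α+/+ cells and 156 on the array labelled p38αΔ/Δ. *Kit*, the receptor of stem cell factor, gave 7262 and 5465 (-0.09). At least 2-fold lower were 2 of the 16, against 6.76% of all genes. These were *Mecom* (197 and 58.4, -1.44) and *Procr* (2992 and 1034, -1.22), named after their values were seen. The 3 probes of *Mecom* ran from -1.44 to 0.62. Of 12 stromal markers, 6 were measured, and *Pdgfra*, *Col1a1*, *Col3a1*, *Dcn*, *Lum* and *Spp1* were above background on neither array. The summed stromal signal was 2.77 and 2.94, with a median difference of 0.16, and its brightest genes were *Pdgfrb* (234 and 171) and *Col1a2* (78.6 and 98.6). Of 7 endothelial markers, 6 were measured (12.2 and 11.2, median -0.48) and *Cdh5* was above background on neither array. The 10 myeloid markers had 8 higher and 2 lower, a median of 1.10 and a summed signal of 36.9 and 56.3. Most of this sum was *Csf1r* (4143 and 3857, 0.21), whose 3 probes ran from -2.28 to 0.76. Of the 10 markers, 6 were at least 2-fold higher, against 4.11% of all genes. These were *Ltf* (2.23), *S100a9* (2.01), *Ngp* (1.99), *S100a8* (1.63), *Camp* (1.18) and *Mpo* (1.02), and *Elane* was lower (-1.41). The summed signal of erythroid markers was 24.4 and 34.4 (8 of 9 measured, median 0.37), of B cell markers 3.88 and 18.9 (8 of 9, median 0.59, *Igll1* dim) and of T and NK cell markers 17.1 and 20.7 (5 of 8, median 0.32, *Cd3d*, *Cd3g* and *Ncr1* dim). The B cell sum rested on *Jchain*, an immunoglobulin chain gene of plasma cells, at 162 and 1755 (3.75), without which it was 2.74 and 3.68. The T and NK cell sum came mostly from *Nkg7* (1669 and 1669, 0.32). The part that these shifts have in the values of the 10 genes was not tested.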

How the data were processed

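Per the file headers, the authors deposited for each array the Agilent Feature Extraction 11.5.1.1 intensity of 62976 spots, corrected for background and spatial trends but not between arrays, and a table of log2 values for 35795 probes, all well above background on both arrays, equal to the log2 signal minus 7.16 or 6.84 (column medians -0.79 and -0.79). Its method was not given in the sources used here. Here, control spots and flagged spots (168 and 124) were left out, log2 intensities averaged per probe and scaled to the 75th percentile over probes. Spots well above background made up 68.1% and 69.2%, 0 were saturated, and both arrays lay on 1 slide. With 1 array per group their number limits the precision. Gene names came from the files, matched to GRCm38.p6 symbols (57.1% of probes, 22557 genes). The brightest probe stood for a gene. All members, other imprinted and IGF genes past 2-fold, the 3 next largest differences each way, neighbours of members, *Mapk14* and leading or missing markers were named by rule, except some markers that are not reported here. Members and lists were chosen with earlier results of these data known. The scaling and the 2-fold call were tested on simulated data in which every probe was above background. The floor, the filter and the bounds were not exercised by that test. Software was Python 3.11.15, numpy 2.4.6, pandas 2.3.3, R 4.3.3 and limma 3.58.1.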

Additional observations from a re-analysis of the deposited data

How the results depend on the processing

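With 1 array per group no replicate could be left out. No paired analysis was possible because each group has 1 array. Values were recomputed after a loess of one array on the other (span 0.3), median centring, quantile normalization, or normexp on the mean and local background signals (offset 50), from the authors' values, requiring both arrays above background or neither, without the floor, and averaging the probes of each gene. The median of the members that each setting kept, 9 genes in the main one, ran from -0.11 to 0.09. Under quantile normalization and median centring all 21 probes moved by less than 0.15, the SD between spots of a difference; 6 moved further under the loess, 5 without the floor, and 12 under normexp. The sign changed at 7 probes under normexp, 3 under the loess and 1 under quantile normalization. Past 2-fold before the change were 2 of the 7, *H19* A_30_P01021588 (to 0.0007) and *Meg3* A_52_P196568 (to 0.01). Under normexp, which adds an offset larger than most of these intensities, *Dlk1* A_55_P2105371 was at -0.63, *Grb10* at -0.37, and 0 probes were 2-fold lower and 0 higher. The 3 lower probes became 1 with the authors' values and 1 with both arrays required, and the 1 higher became 2 without the floor. The first and second of these settings hold 15 member probes, without those that have only a bound. With probes averaged, 1 gene, *Dlk1*, was 2-fold lower. The IGF median moved from 0.15 to -0.13 without a filter and -0.070 with the mean of probes. Among the markers, the stromal median became -0.048 with the authors' values, -0.051 with both arrays required and -0.13 without a filter. The endothelial median was -0.085 under normexp, -0.11 with the authors' values, -0.11 with both arrays, -0.13 without a filter and -0.85 with the mean of probes. The myeloid median was 0.78 and the B cell median 0.29 under normexp, and the latter 0.98 without the floor. The T and NK cell median was -0.028 without a filter and 0.14 with the mean of probes. Without a filter, genes dim on both arrays enter at the difference between the floors, -0.13. The cause of the other shifts was not tested. Signal over background limits *Igf2*, *Peg3* and the dim *H19*, *Meg3* and *Mest* probes, for which only bounds or intensities can be given.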

Other observations

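The noncoding RNA *Peg3os*, at the *Peg3* locus and named after its values were seen, gave an intensity of 13.1 in p38α+/+ cells and 22.2 on the array labelled p38αΔ/Δ, a log2 difference of 1.08 ± 0.31 (SD between spots), while both *Peg3* probes were above background on neither array. Outside the rule for named genes, *Cdkn1c*, the maternally expressed cell cycle inhibitor known for its part in LT-HSC quiescence, gave 108 and 82.5, a log2 difference of -0.08, and *Phlda2*, next to it, one of -0.76. *Igfbp2*, which binds IGFs and is known as a niche factor for LT-HSCs, had 0.08 at its brighter probe and -3.18 at the other, a further gene whose probes parted.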
